A study of Mus musculus with 8 samples.

Results

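Tff3, Sprr1a and Bex1 were chosen by their rise from C 8w to C 12w, where they stood among the largest of all genes, and these are 3 of the 22504 genes listed for the livers and tumors of 8 Fah-/- mice. Fah-/- mice of the 129S4 strain cannot complete tyrosine breakdown, for want of its final enzyme, and toxic intermediates build up in their hepatocytes. NTBC stops the pathway before these form and was given in the drinking water at 7.5 mg/L. In all 3 groups NTBC was cut to 2.5% of that dose for at least 8 weeks, which causes moderate chronic liver injury (MCLI). The 3 C 8w mice had 8 weeks of MCLI and the 2 C 12w mice had 12 weeks. The 3 mice of C 8w + A 4w spent 8 weeks in MCLI and then 4 weeks without NTBC, which causes severe acute liver injury (SALI). In the longer SALI courses of the study, NTBC was given back for short intervals. The labels give the tissue as tumor for C 12w and as liver for the other mice, so time and tissue cannot be told apart in C 12w. They give no age or sex.

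Trefoil factor 3, encoded by Tff3, is a small secreted peptide that intestinal goblet cells release with mucus and that helps epithelia close wounds. Small proline-rich protein 1A, encoded by Sprr1a, is a precursor of the cornified envelope, the cross-linked layer of stressed and squamous epithelium, and it is also induced in injured neurons and heart muscle. Bex1 belongs to the brain-expressed X-linked genes, which lie beside the Tceal genes on the X chromosome, and its small protein binds the p75 neurotrophin receptor and is made in neurons. None of the 3 is a usual product of healthy adult hepatocytes.

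Tff3 (ENSMUSG00000024029) had an FPKM (fragments divided by gene length in kilobases and by the number of mapped fragments of a sample) of 0.999, 1.03 and 2.37 in the C 8w samples 1a, 2a and 3a. It was 5.64, 6.63 and 5.53 in the C 8w + A 4w samples C096, C097 and C098, and 226.6 and 11.7 in the C 12w samples 2e and 3e. The 3 groups did not overlap, and 2e stood far above every other sample. In 2e Tff3 was the gene with rank 209 of all 22504 by FPKM, and in C 8w its best rank was 7994. The mean was 1.47 ± 0.78 (SD, n = 3) for C 8w and 5.93 ± 0.61 (SD, n = 3) for C 8w + A 4w. For C 12w it was 119.1, set almost wholly by 2e.

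Sprr1a (ENSMUSG00000050359) was at 1.70, 2.34 and 7.08 FPKM in the C 8w samples, in the same order. It was at 167.9, 43.5 and 46.1 FPKM in C096, C097 and C098, and at 127.1 and 20.2 FPKM in 2e and 3e. Every sample of the later groups was above every C 8w sample, but C 8w + A 4w and C 12w overlapped each other. C096 held the highest value, at which Sprr1a was rank 352 of all genes. The lowest C 8w + A 4w sample was 6.14-fold above the highest C 8w sample.

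Bex1 (ENSMUSG00000050071) was at 0.0727, 0.102 and 0.141 FPKM in C 8w, at 2.17, 0.579 and 1.43 FPKM in C 8w + A 4w, and at 2.86 and 44.6 FPKM in 2e and 3e. As with Tff3, the groups did not overlap and followed the order of C 8w, then C 8w + A 4w, then C 12w. Both genes were chosen for their rise in C 12w, and how many other genes show this order was not counted. For Bex1 the outlying sample was 3e and not 2e. Bex1 had at least 1 FPKM in only 4 samples, none of them of C 8w, so it passed the floor of 1 FPKM in at least 4 samples only through the samples where it was high. Its FPKM could also be shared with relatives, which was not tested. Of the 50-base windows of its transcripts, 30.9% occur in Bex4, Tceal7 or Bex2. None of the windows of Tff3 or Sprr1a occurs in another gene.

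**Figure D1:**
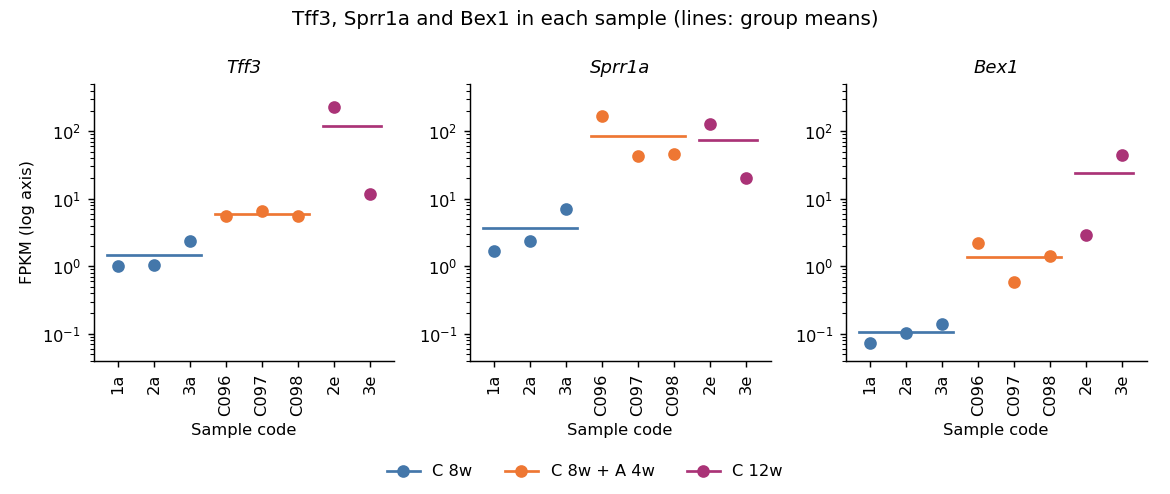
The FPKM of Tff3, Sprr1a and Bex1 in each of the 8 samples on a log axis, with points for samples, colors for groups and lines for group means. Tff3 and Sprr1a are higher in 2e than in 3e, Bex1 is higher in 3e, and every C 8w sample is below every sample of the other groups.

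The rule used the comparison of C 12w with C 8w, and these values are therefore given without a test. On the log2(FPKM + 1) scale, which understates the change of low genes, the C 12w mean was 4.49 above C 8w for Tff3, 3.64 for Sprr1a and 3.59 for Bex1. By this difference they had ranks 1, 4 and 5 among the kept genes whose groups did not overlap. Mup20 at 3.88 and Fgfbp1 at 3.84 stood between them and Mup3 at 3.54 just after them, where Mup20 and Mup3 encode urinary proteins. In that comparison 12.2% of the 10244 genes kept were called higher and 34.9% were higher with groups that did not overlap. Against C 8w + A 4w, C 12w was 0.44 lower for Sprr1a on the same scale, whereas it was 2.96 higher for Tff3 and 2.53 higher for Bex1.

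The C 12w pair split the 3 genes. Tff3 was 19.4-fold and Sprr1a 6.29-fold higher in 2e than in 3e, while Bex1 was 15.6-fold higher in 3e. The difference within this pair was larger than that of 99.9% of the genes kept for Tff3, 99.4% for Sprr1a and 99.8% for Bex1. The 3 genes were chosen by their mean in this same pair, so a wide gap within it is partly set by that choice. In C 8w + A 4w, by contrast, Tff3 spread less than in the other groups, with a highest value 1.20-fold above the lowest, against 3.86-fold for Sprr1a and 3.76-fold for Bex1. Without 2e, the Tff3 difference between C 12w and C 8w was 2.41 instead of 4.49 and that of Sprr1a 2.34 instead of 3.64. Without 3e, that of Bex1 was 1.80 instead of 3.59.

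The comparison of C 8w + A 4w with C 8w asks what 4 weeks of severe injury changed after the chronic injury that both groups had. C 8w + A 4w mice were also 4 weeks further into treatment, so the added time and the severe injury cannot be told apart in it. It was not used to choose the genes, although its 3 C 8w samples were. Sprr1a was called, with a log2 difference of 4.08 ± 0.76 (SE, limma, adjusted p = 0.00371), and all 3 C 8w + A 4w samples were above all C 8w samples. It was called under all 16 alternatives, with differences from 3.45 to 5.34. Of the genes kept, 25.3% were called higher in this comparison, 14.1% were called lower and 39.0% were higher with groups that did not overlap. Sprr1a was number 51 of the 10244 genes by log2 difference, Tff3 number 346 and Bex1 number 615.

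Tff3 and Bex1 did not pass this test. The log2 difference was 1.53 ± 0.85 for Tff3 (SE, limma, adjusted p = 0.183) and 1.06 ± 0.74 for Bex1 (SE, limma, adjusted p = 0.286). In each case all 3 C 8w + A 4w samples were above all C 8w samples. The fit shares a single estimate of the spread over the 3 groups, and for both genes the C 12w pair supplies most of it. In a fit of only C 8w and C 8w + A 4w, the same differences had an SE of 0.20 and an adjusted p of 0.000526 for Tff3, and an SE of 0.22 and an adjusted p of 0.00544 for Bex1 (limma). In that fit 32.1% of genes were called higher. Bex1 entered every one of these fits through samples where it was high, so its p-values are not support for a difference, and with no filter its adjusted p in the limma fit of all groups was 0.417. With a pseudocount of 0.1 in place of 1, Bex1 differed by 2.71 (adjusted p = 0.0384) and Tff3 by 2.05 (adjusted p = 0.0997) in the limma fit of all groups.

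Several facts of the samples move with this comparison. C 8w + A 4w carries another series of sample codes than C 8w and C 12w, and Gapdh, which every cell uses, was listed at 0.0980 to 0.247 FPKM in the 5 samples of those groups and at 68.2 to 99.9 FPKM in C 8w + A 4w. Alb, the albumin gene of hepatocytes, was listed at 0 in those 5 samples and at 12946 to 16949.8 FPKM in C 8w + A 4w. Code series and group cannot be told apart. The Y-linked gene Eif2s3y was at 0 FPKM in 6 samples, C096 included, and at 26.7 and 26.1 FPKM in C097 and C098. Ddx3y, Kdm5d and Uty were above 0 in C097 and C098 alone. Without C097 and C098, an alternative chosen after seeing the data, Sprr1a differed by 5.34 (limma, adjusted p = 0.0167), and the lone sample C096 is assumed to vary like the other groups. Tff3 then differed by 1.47 (limma, adjusted p = 0.482) and Bex1 by 1.52 (limma, adjusted p = 0.388). Fah itself was at 13.5 to 16.8 FPKM in C 8w and C 12w and at 5.02 to 6.36 FPKM in C 8w + A 4w, a value over the whole gene that does not show which part is deleted.

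The RefSeq promoter table of build GRCm38.p6 matched 2 of the 3 genes, and the 250 bases before their starts are shown because Sprr1a is known for its AP-1 sites. AP-1 is the dimer of Jun and Fos family proteins. The Sprr1a sequence lies at chr3:92485882-92486131 on the minus strand and the Bex1 sequence at chrX:136215514-136215763 on the minus strand. Capitals mark, on either strand, the AP-1 motif TGANTCA, the TATA box TATAAA and the GC box GGGCGG, which do not overlap each other here.
Sprr1a: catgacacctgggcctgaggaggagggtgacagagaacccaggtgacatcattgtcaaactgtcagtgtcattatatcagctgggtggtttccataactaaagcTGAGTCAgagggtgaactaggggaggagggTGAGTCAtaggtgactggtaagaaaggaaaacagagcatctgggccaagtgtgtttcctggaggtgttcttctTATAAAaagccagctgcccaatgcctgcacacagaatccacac
Bex1: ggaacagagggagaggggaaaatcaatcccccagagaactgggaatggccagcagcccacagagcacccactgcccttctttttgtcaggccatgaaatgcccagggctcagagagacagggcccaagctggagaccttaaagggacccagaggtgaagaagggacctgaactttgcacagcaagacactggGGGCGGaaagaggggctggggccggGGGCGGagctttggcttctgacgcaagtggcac
In Sprr1a the AP-1 motif starts 146 and 116 bases before the start and the TATA box 43 bases before it. At least 1 AP-1 motif was in 6.75% of all 32851 promoters of this length and at least 2 in 0.338%. A TATA box was in 12.4%. In Bex1 the GC box starts 58 and 33 bases before the start, and at least 2 GC boxes were in 16.7% of promoters. The GC content is 49.6% in Sprr1a and 59.6% in Bex1, and the median over all promoters is 52.4%. The motifs CRE (TGACGTCA), STAT (TTCNNNGAA) and E-box (CACGTG) were not among the letters of either window. These are matches of letters and not measured sites.

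Genes of the families of Tff3 and Sprr1a were listed at or near 0. Since Alb and Gapdh are also listed at or near 0 in the C 8w and C 12w samples, such a value is given only as listed. Tff1 was at or below 0.344 FPKM and Tff2 at or below 0.703 FPKM, and neither reached the floor. Of the 14 other Sprr genes listed, 9 were listed at 0 in all samples and the highest value of any was 0.116 FPKM, for Sprr2g in C096. Sprr1b, the gene most like Sprr1a by name, was at 0 in 7 samples and 0.0437 FPKM in 3e. The Sprr2a copies share most of their windows with each other, and a value of theirs could be split between them.

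The Bex and Tceal genes were more varied. Of the 11 genes other than Bex1, 5 were kept, and in C 8w + A 4w against C 8w 2 of them rose, 1 fell and 2 were not called, where 25.3% of all genes kept were called higher and 14.1% lower. Bex3, which binds the p75 neurotrophin receptor, rose from 0.742 to 1.25 FPKM in C 8w to 4.72 to 7.60 FPKM, a log2 difference of 1.87 ± 0.41 (SE, limma, adjusted p = 0.00791). In C 8w only 3a reached the floor of 1 FPKM, so Bex3 was kept through the later groups, where it was high. Tceal9 rose by 1.12 ± 0.26 (SE, limma, adjusted p = 0.00978), from 12.7 to 17.6 FPKM in C 8w to 26.1 to 44.3 FPKM. Tceal8 fell by 0.58 on the log2 scale (SE 0.13, limma, adjusted p = 0.00846). Without C097 and C098, Bex3 and Tceal8 were not called.

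In C 12w against C 8w, Tceal9 was the 1 gene of the 5 that was called (2 without 2e), where 12.2% of all genes kept were called higher and 6.98% lower. It was at 33.7 FPKM in 2e and 61.6 FPKM in 3e (difference 1.54 ± 0.29, SE, limma, adjusted p = 0.0107). Tceal5 was below the floor, at 0.0600 to 0.137 FPKM in C 8w, 0.12 to 0.527 FPKM in C 8w + A 4w, 0.530 FPKM in 2e and 4.27 FPKM in 3e. Its groups stood in the order of those of Bex1, except that C 8w + A 4w began below the highest C 8w value. Bex4, of whose windows 49.7% occur in other genes, Bex1 among them, was at 11.3 to 15.6 FPKM in C 8w and was not called. In 3e 5 of the 6 kept genes, Bex1 included, were above 2e, 3 of them by at least 1 on the log2 scale, where 6233 of the 10244 genes kept were above 2e and 375 by at least 1.

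**Figure D2:**
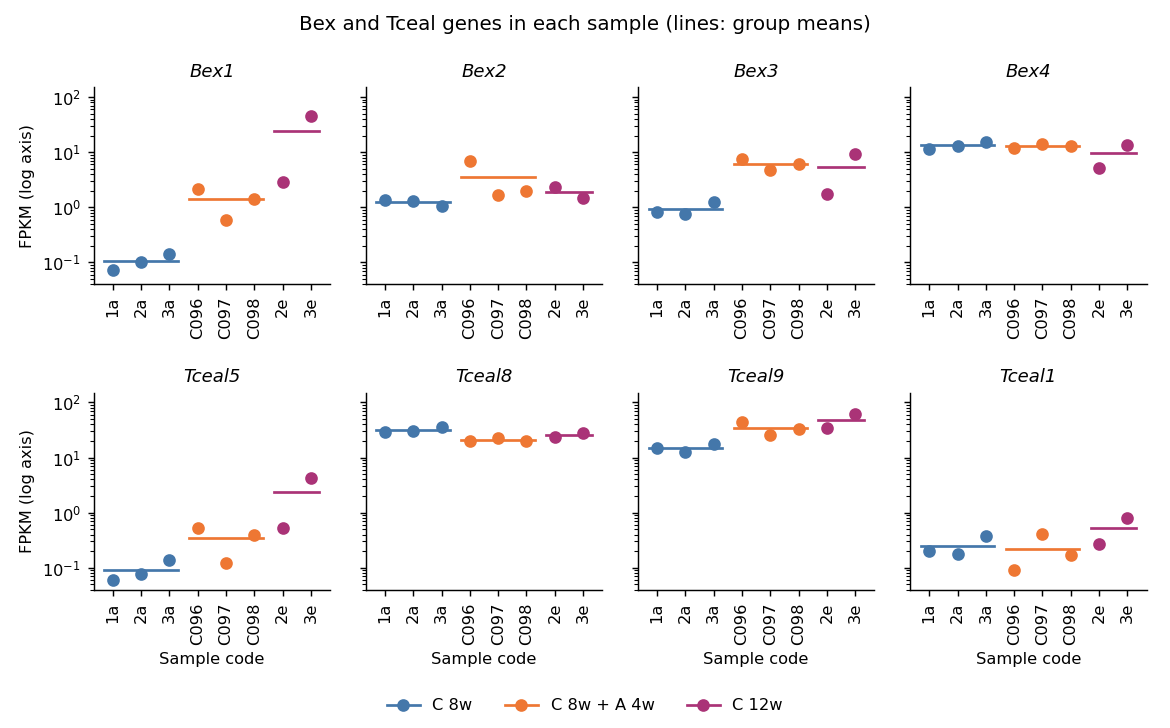
The FPKM of 8 Bex and Tceal genes in each sample on a log axis, with lines for group means. Bex1, Bex3, Tceal5 and Tceal9 are higher in 3e than in 2e, Bex4 is at 11.3 FPKM or more in every sample except 2e, and Tceal8 is lower in each C 8w + A 4w sample than in any of C 8w.

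Other genes of the roles known for these 3 were described by lists. Of the 12 kept genes of the cornified envelope and squamous stress, 7 rose and none fell in C 8w + A 4w, where 25.3% of all genes kept were called higher and 14.1% lower, with a median log2 difference of 0.78 against 0.12 over all genes kept, which median-ratio scaling brought to 0.01. Of these, S100a11 rose by 4.05 and S100a6 by 2.28 on the log2 scale, both calcium-binding proteins, and Klf4, a factor of epithelial differentiation, by 2.09 (limma, adjusted p = 3.16e-05, 0.000281 and 0.00078). S100a6 and Klf4, 2 of the 7, were below 1 FPKM in every C 8w sample and kept only through the groups where they were high. With no filter their adjusted p was 0.00196 and 0.00421 (limma). Ppl, a cornified envelope plakin, rose by 1.08 (limma, adjusted p = 0.0194). In C 12w 4 of the 12 rose, S100a11, Ppl, S100a6 and Cdh1, where 12.2% of all genes were called higher. Of the 28 genes of this list, 14 were below 1 FPKM in every sample.

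Of the 10 kept genes that nerves raise on injury, 6 rose and 2 fell in C 8w + A 4w (none fell without 1a), and 4 rose and none fell in C 12w (2 rose without 1a or 3a). The shares over all genes kept were 25.3% higher and 14.1% lower in the former comparison and 12.2% and 6.98% in the latter, and the falls are near them. Basp1, a growth cone protein and 1 of the 6 rises, was below 1 FPKM in every C 8w sample and kept only through the groups where it was high. Atf3, a stress-response factor, was at 2.20 to 2.54 FPKM in C 8w, at 35.7, 11.2 and 8.52 FPKM in C 8w + A 4w and at 35.7 and 8.91 FPKM in 2e and 3e. Its highest samples, C096 and 2e, are also the highest of Sprr1a. Its log2 difference was 2.25 ± 0.56 after the severe injury weeks and 2.49 ± 0.63 in C 12w (SE, limma, adjusted p = 0.0142 and 0.0298). Without 1a it was not called in either comparison, and in C 12w it was also lost without 2a, 3a or 2e. Jun, an AP-1 subunit, rose by 0.88 and 1.27 on the same scale (limma, adjusted p = 0.00515 and 0.00555), and in C 8w + A 4w it was not called without C097 and C098. Junb, another subunit but a member of the IL-6 family and STAT3 list below, rose by 0.92 and 1.79 (limma, adjusted p = 0.0151 and 0.00456). Gadd45a, a DNA damage gene, rose by 1.96 after the severe injury weeks and by 2.10 in C 12w (limma, adjusted p = 0.00771 and 0.0206).

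The IL-6 family and STAT3 list, whose cytokines induce acute phase genes, gave 9 rises and 9 falls among 31 kept genes in C 8w + A 4w, with 3 rises left without 1a and 5 without C097, C098 or 3a. Over all genes kept, 25.3% were called higher, a share close to that of these rises, and 14.1% lower, a share below that of these falls. Among the falls, the log2 difference was -3.35 for Itih4, -2.29 for Saa1 and -2.08 for Orm2 (limma, adjusted p = 0.000252, 0.0183 and 0.000434). Among the rises, it was 1.86 for Lcn2 (limma, adjusted p = 0.000496). Saa1 was at 0.167 to 0.720 FPKM in C 8w + A 4w and kept only through samples of the groups where it was high. In C 12w 6 rose and 3 fell, with 3 rises without 1a, 10 rises without 3e and 7 falls without 2e, where 12.2% of all genes were called higher and 6.98% lower. Of 10 kept genes for receptors and regulators of trefoil factors, 2 rose and 2 fell in C 8w + A 4w (1 fell when any sample of the compared groups was left out), and 3 rose and none fell in C 12w. The counts in C 8w + A 4w are about those of all genes, 25.3% higher and 14.1% lower, and in C 12w those shares were 12.2% and 6.98%. F2rl1, a protease-activated receptor, rose by 1.54 after the severe injury weeks and by 1.08 in C 12w (limma, adjusted p = 3.62e-05 and 0.0026). It was below 1 FPKM in every C 8w sample and kept only through the later groups, and with no filter its adjusted p was 0.000125 and 0.0039 (limma). Egfr, the receptor of epidermal growth factor, rose by 0.71 and 0.86 on the same scale (limma, adjusted p = 0.00554 and 0.0107), and Foxa3, a factor that drives liver genes, rose by 1.20 in C 12w (limma, adjusted p = 0.0217).

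**Figure D3:**
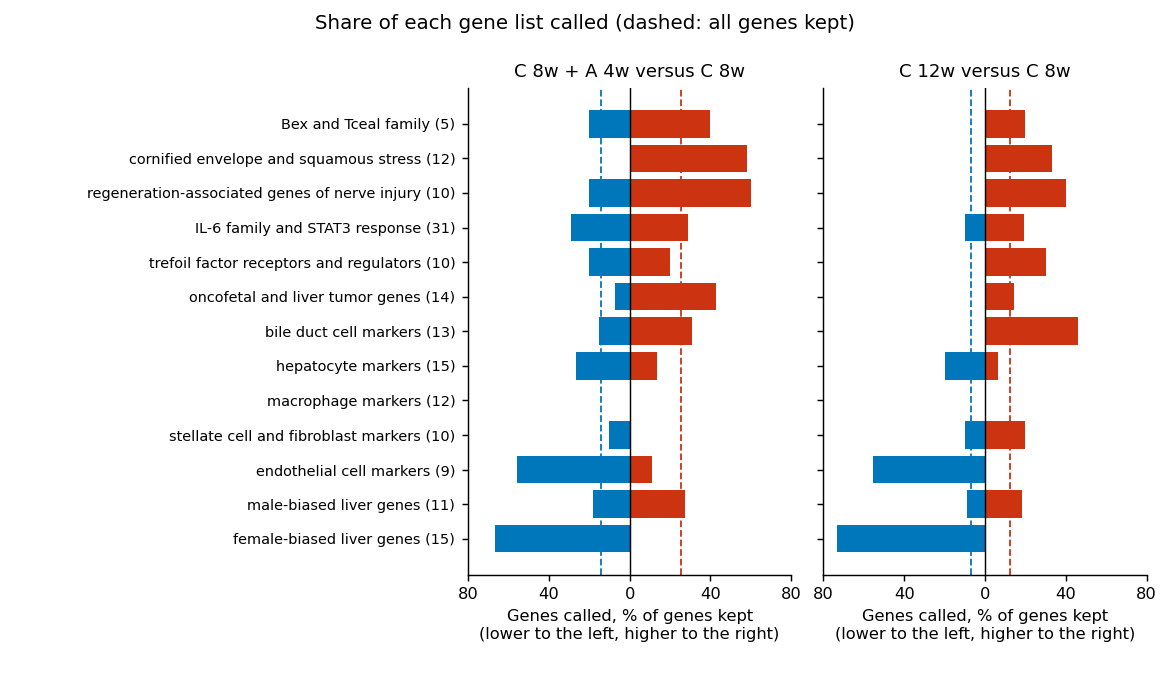
The share of each list's kept genes called higher (right) or lower (left) in limma, in percent, with the number of kept genes in brackets and dashed lines for all genes kept. In both comparisons the lists above the dashed line for higher calls include regeneration-associated, squamous, bile duct, oncofetal and Bex and Tceal genes. Those above the line for lower calls include female-biased, endothelial and hepatocyte genes. IL-6 family and male-biased genes are above both lines in both comparisons. Some shares are near the line, such as the higher calls of bile duct genes in C 8w + A 4w and of oncofetal genes in C 12w.

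Other markers of the cells these genes are known from were mostly listed below 1 FPKM, and values at or near 0 are again given only as listed. Apart from Tff3, all intestinal goblet cell markers reached at most 1.59 FPKM, 8 of the 9 were below 1 FPKM in every sample, and none was kept. Of the 19 mucus genes, 17 were below 1 FPKM in every sample, the others being Muc13 at up to 2.69 FPKM and Spink4 at up to 1.59 FPKM. Muc2, the mucin of goblet cells, was at 0.0174 FPKM or less. Spdef, a goblet cell factor, was at 0.696 FPKM in 2e and at most 0.0292 FPKM in the other samples. Of 16 neuroendocrine and neuronal markers, 15 were below 1 FPKM in every sample, and Syp alone was kept. Syp was at 1.24 to 1.58 FPKM in C 8w and at 0.464 and 0.300 FPKM in 2e and 3e. It was called lower in C 12w (log2 difference -0.78, limma, adjusted p = 0.00825), where 6.98% of all genes were, and not called in C 8w + A 4w. The extraction protocol in the labels names retinas, and of 13 photoreceptor markers 11 were below 1 FPKM in every sample, the others being Gnat1 at 1.95 to 3.57 FPKM and Gnat2 at up to 1.33 FPKM.

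Bile duct cells are known to make Tff3 in small amounts. Of 13 kept markers, 4 rose and 2 fell in C 8w + A 4w (8 rose without 2e or without 3e, and 1 fell without 1a, 3a, C096 or C098), near the 25.3% and 14.1% of all genes. In C 12w, where 12.2% of all genes were called higher, 6 rose and none fell, but 1 rose without 1a or without 3a, 2 without 2a and 3 without C098. In 3e 11 of the 13 were above 2e, 7 of them by at least 1 on the log2 scale, where 6233 of the 10244 genes kept were above 2e. Spp1, an osteopontin made by duct cells, was at 8.26 to 11.8 FPKM in C 8w, at 16.6 to 23.6 FPKM in C 8w + A 4w, at 22.2 FPKM in 2e and at 310.7 FPKM in 3e. Sox9, a duct and progenitor factor, was at 0.540 to 0.959 FPKM in C 8w, 3.61 FPKM in 2e and 19.9 FPKM in 3e. The called differences of Spp1 (3.03, limma, adjusted p = 0.0410) and Sox9 (2.44, limma, adjusted p = 0.0173) are lost without 1a or 3a, and that of Spp1 also without 2a or any C 8w + A 4w sample. Cldn4, a tight junction gene, went the other way, at 4.37 FPKM in 2e and 1.62 FPKM in 3e, and rose by 3.57 in C 8w + A 4w (limma, adjusted p = 9.84e-05). Cldn4, Sox9 and Epcam, an adhesion molecule of duct cells, were below 1 FPKM in every C 8w sample and kept only through the later groups, and all 3 are among the 6 rises in C 12w. With no filter the adjusted p in C 12w was 0.0454 for Cldn4, 0.0462 for Sox9 and 0.103 for Epcam, whose call was lost there and when any sample except 2e was left out, and in C 8w + A 4w it was 0.000951 for Cldn4 and 0.0201 for Epcam (limma). The part of duct cells in the values of Tff3 and Bex1 was not tested.

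**Figure D4:**
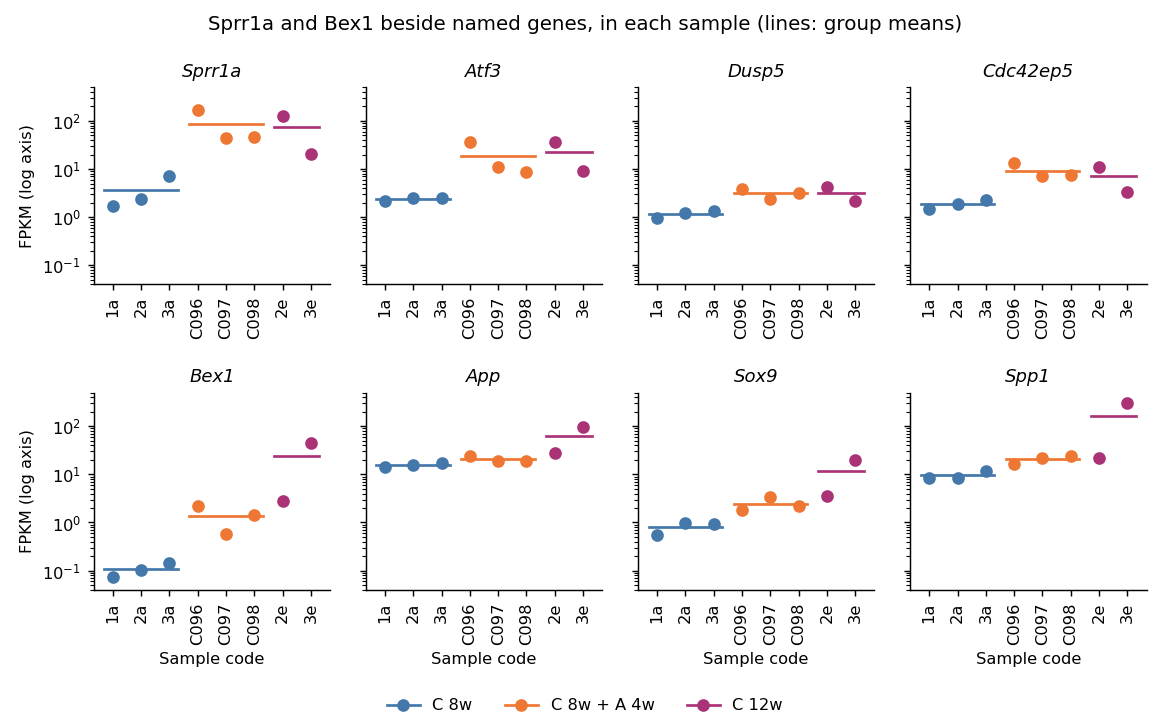
The FPKM of Sprr1a with Atf3, Dusp5 and Cdc42ep5, and of Bex1 with App, Sox9 and Spp1, in each sample on a log axis, with lines for group means. The genes in the top row are higher in 2e than in 3e and those in the bottom row higher in 3e.

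The genes most like each member were taken as the 5 other kept genes with the highest Pearson correlation of log2(FPKM + 1) over the 8 samples, a description over samples that share group and code series. For Tff3 they were P2rx4, Kctd17, Tlr2, Sar1a and Lancl2, with r from 0.962 to 0.992, all highest in 2e. P2rx4, a channel gated by ATP, was at 23.6 FPKM in 2e and at 12.2 FPKM or less elsewhere. For Sprr1a they were Alkbh2, Pgm3, Cdc42ep5, Nup93 and Dusp5, with r from 0.979 to 0.984, and Dusp5, a phosphatase of ERK kinases, was at 0.964 to 1.33 FPKM in C 8w, 2.37 to 3.87 FPKM in C 8w + A 4w and 4.17 and 2.18 FPKM in 2e and 3e. For Bex1 they were Hspb6, App, Cdc42ep1, Zfp207 and H2afx, with r from 0.982 to 0.991. App, the amyloid precursor, was at 14.2 to 28.4 FPKM in 7 samples and 96.2 FPKM in 3e. By rank, Cdc42ep5 for Sprr1a and App for Bex1 had a Spearman rho of 1, which other genes shared. At least 5 genes reached a rho of 1 for each member, and none of the 5 named for Tff3 was among them. With median-ratio scaling 4 stayed for Tff3 and 1 each for Sprr1a and Bex1.

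Markers of other cells and of sex differed as well. Female-biased liver genes fell in 10 of 15 kept members in C 8w + A 4w, where 14.1% of all genes were called lower, and in 11 of 15 in C 12w, where 6.98% were. Endothelial markers fell in 5 of 9 kept genes in each comparison, but in C 12w in 3 without 1a, 3a or 3e. In C 8w + A 4w 1 of the 9 rose, Lyve1, a hyaluronan receptor, by 1.18 on the log2 scale (limma, adjusted p = 0.0177), and it was not called without 1a, without C098, or without both C097 and C098. No macrophage marker of 12 kept was called in either comparison, although the summed FPKM of the list was 582.2 in C097 and 190.4 to 262.8 elsewhere. In bulk samples, fewer cells of a type and less RNA per cell cannot be told apart. The counts that follow stand beside the shares of all genes, which for C 8w + A 4w were 25.3% (higher) and 14.1% (lower), with 12.2% and 6.98% for C 12w. Of 14 kept oncofetal and liver tumor genes, 6 rose and 1 fell in C 8w + A 4w (11 rose without 2e or 3e), and 2 rose in C 12w (5 without 2e, 4 without 3e and 1 when any C 8w sample was left out). Cpe, a carboxypeptidase of peptide hormones counted in both, was below 1 FPKM in every C 8w sample and kept only through the later groups, and with no filter its adjusted p was 0.0199 after the severe injury weeks and 0.0835 in C 12w (limma). That C 12w call was lost there, and also without 1a, 2a, 3a, 2e or C097. Of 15 kept hepatocyte markers, 2 rose and 4 fell in C 8w + A 4w (1 rose without 2a, 7 fell without 2e or 3e), and 1 rose and 3 fell in C 12w (4 rose without 3e, 7 fell without 2e). Of 10 kept stellate cell and fibroblast markers, 1 fell in C 8w + A 4w, and 2 rose and 1 fell in C 12w (none rose without 1a, 2a or 3e, and 1 rose without 3a or C098). Of 11 kept male-biased liver genes, 3 rose and 2 fell in C 8w + A 4w (5 rose without 2e or 3e, none fell without C096, 1a or 3a, and 1 fell without C098 or 2a), and 2 rose and 1 fell in C 12w (4 and 3 without 2e). Serpina1e, a protease inhibitor and 1 of the 3 rises, was at 0.114 to 0.366 FPKM in C 8w and kept only through the groups where it was high, and with no filter its adjusted p was 0.000977 (limma). Neither of the 2 neutrophil markers kept was called, and no marker of T, B and NK cells was kept. The part of these lists in the values of Tff3, Sprr1a and Bex1 was not tested.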

How the data were processed

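RNA of 8 samples was analysed in 1 table of FPKM values that the authors deposited. Per the labels, libraries were made with a TruSeq kit from Trizol extracts. The submitters' processing notes name Bowtie 0.12.2 and mm8, without their role; the quantifier and annotation are not given in the sources used here. FPKM keeps no counts, so depth and counting error are unknown. The summed FPKM was 324735 to 399342 per sample. The table held 0 columns of other samples, and 22314 of its 22504 IDs matched a symbol.

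Genes with at least 1 FPKM in at least 4 samples (10244) were compared as log2(FPKM + 1) in R 4.3.3 with limma 3.58.1 (eBayes with a trend, 1 fit of the 8 samples, two-sided, Benjamini-Hochberg, threshold 0.05), after tests on simulated data. Genes under that threshold are called. Python 3.11.15 was used for the rest. Shared sequence was counted in GENCODE M21 transcripts, whose annotation may differ from the authors'.

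The genes, lists and tests were chosen with earlier results of these data known. Named genes are the 3 members, their families, the 5 genes most like each, up to 4 called genes per list and comparison whose groups do not overlap, the largest rises, Fah and the sex-linked genes. The results of 1 gene list are not reported here. Gapdh, Alb, Basp1, Fgfbp1, Muc2, Muc13, Spink4, Spdef, Gnat1 and Gnat2 were named after their values were seen. Nothing says how the samples were taken, and p-values measure the spread between them. Alternatives were a pseudocount of 0.1, a floor of 0.5 or none, median-ratio and quantile scaling, no trend, only the 2 groups, a replicate block, each sample left out and, added after seeing the data, both samples with Y-linked values left out.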

Additional observations from a re-analysis of the deposited data

How the results depend on the processing

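In C 8w + A 4w against C 8w, Sprr1a was called under all 16 alternatives. Tff3 was called with only the 2 groups (1.53, adjusted p = 0.000526) and without 2e or 3e, and Bex1 was under the threshold with a pseudocount of 0.1 (2.71, adjusted p = 0.0384), with only the 2 groups (1.06, adjusted p = 0.00544) and without 2e or 3e, all in limma. Apart from the pseudocount, these fits leave out 1 or both C 12w samples, whose spread the fit of all groups shares. Bex1 passed the floor only through samples where it was high, so its calls are not support for a difference. Leaving out each sample in turn gave differences of 1.40 to 1.78 for Tff3 and 0.82 to 1.33 for Bex1, and 2469 to 5189 genes called in place of 4034, the lowest without 1a. Without C097 and C098, 2511 were called. In C 12w against C 8w, 1962 genes were called, 677 to 3702 with a sample left out (677 without 1a, 720 without 3a, 941 without 2a, 3702 without 2e). There the difference spanned 2.41 to 6.57 for Tff3, 2.34 to 4.94 for Sprr1a and 1.80 to 5.37 for Bex1, and was 5.82 for Bex1 with a pseudocount of 0.1. With the shared numbers 2 and 3 as a replicate block, 252 genes were called. These numbers belong to different mice. Across genes, the difference between numbers 2 and 3 in C 12w correlated at -0.19 with that in C 8w. A single pair of differences cannot show whether equal numbers share more than a number. No called difference of a named gene changed sign under any alternative. Depth is unknown, so counting error could not be given for Bex1 at 0.141 FPKM or less in C 8w.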
